A study of Mus musculus with 30 samples.

Results

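The genes of the Frizzled receptor family were examined in mouse forelimb buds after a short block of WNT secretion. They were taken by name: the 10 genes *Fzd1* to *Fzd10*, found by their symbol among the 55052 genes of the deposited FPKM table and joined by Ensembl identifier to the 50833 genes of the count table. All 10 were in both tables and all 10 had enough counts to be tested in each comparison. PolyA RNA was sequenced from forelimb buds of Swiss Albino embryos. At embryonic stage E10.5 the females had been injected once with DMSO, the solvent, or with C59 (Wnt-C59), and limb buds were dissected 1, 6, 12, 18 or 24 h later. By the study's methods C59 was diluted in a vehicle that also held methylcellulose and Tween, while controls received DMSO in PBS. The arms therefore differ in the vehicle as well. C59 is a small molecule inhibitor of porcupine, the enzyme that attaches a lipid to WNT proteins so that they can be secreted. Each treatment and time point had 3 libraries, which makes 10 groups and 30 libraries of embryos labelled as wild type.

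Frizzled proteins are receptors that cross the cell membrane repeatedly and bind WNT ligands through a cysteine-rich domain on the outside of the cell. Together with LRP5 or LRP6 they recruit Dishevelled proteins, which leads to stabilization of β-catenin, and with other partners they act in planar cell polarity. By sequence the family is usually divided into the groups *Fzd1*, *Fzd2* and *Fzd7*, then *Fzd5* and *Fzd8*, then *Fzd3* and *Fzd6*, and finally *Fzd4*, *Fzd9* and *Fzd10*. In the limb bud, WNT ligands from the ectoderm act on the mesenchyme underneath, where they sustain outgrowth and keep cells from forming cartilage.

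In the GENCODE M21 annotation of GRCm38 (mm10), *Fzd8* and 5 other genes have a single exon, namely *Fzd1* (chr5:4753839-4758035, minus strand), *Fzd2* (chr11:102604396-102608058, plus), *Fzd7* (chr1:59482424-59486955, plus), *Fzd9* (chr5:135248938-135251230, minus) and *Fzd10* (chr5:128600844-128604093, plus). *Fzd4* (chr7:89404355-89413134, plus) and *Fzd5* (chr1:64730558-64737751, minus) have 2 exons each, and *Fzd3* (chr14:65192449-65262463, minus) and *Fzd6* (chr15:39006034-39038188, plus) have 7 in their longest transcript. *Fzd3*, *Fzd5* and *Fzd6* each overlap predicted genes on the other strand, and *Fzd3* also overlaps *Gm27263* on its own strand. By the study's methods the FPKM were computed without regard to strand, and the strand of counting was not stated. Reads of these members therefore cannot be told apart from those of the overlapping genes.

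Promoter windows of 300 bases around the RefSeq start (GRCm38.p6) were at hand for 6 of the 10 genes. They were searched on both strands for CTTTGAA and CTTTGAT, forms of the motif bound by TCF and LEF factors, the nuclear end of the WNT/β-catenin pathway. CTTTGAA was found in 5.14% and CTTTGAT in 3.73% of all 32851 windows and in 0 of the 6 Frizzled windows. The shorter core CTTTG, which is contained in both and was searched after that result was seen, was present in 53.9% of all windows and in 3 of the 6, those of *Fzd10*, *Fzd7* and *Fzd1*. These matches are printed because *Fzd10* is the member with the largest response to C59 and *Fzd7* and *Fzd1* are among the most abundant. Each stretch of 30 bases runs 5′ to 3′ on the strand of its gene, with the core or its reverse complement in capitals.
*Fzd10*, chr5:128600956-128600985, plus strand: ggaagaagaggcCAAAGtttgcgcgctgag
*Fzd7*, chr1:59482007-59482036, plus strand: ccacagagaaaaCAAAGcgcgctattggat
*Fzd1*, first match, chr5:4758437-4758466, minus strand: cgcagcactCAAAGtagcagtctgtgacca
*Fzd1*, second match, chr5:4758236-4758265, minus strand: ttcatagctactCTTTGtgccggagcggag
A match is a run of letters only, and no binding was measured here. The GENCODE transcript of *Fzd10* begins upstream of the RefSeq start, so that its printed stretch lies within the annotated first exon.

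The same windows were rich in CpG pairs, the median of all windows being 7 CpG. The windows of *Fzd9* and *Fzd10* held 53 and 45 CpG, more than 99.5% and 98.1% of all windows. Those of *Fzd5* and *Fzd4* held 38 and 32, more than 95.0% and 90.5% of all windows. Those of *Fzd7* and *Fzd1* held 24 and 16, more than 80.0% and 67.0%. The whole window of *Fzd10* lies within its annotated exon. The part of the window upstream of the GENCODE start is printed for *Fzd5*, *Fzd9* and *Fzd4*, which were all higher after C59 at 12 h, with each CpG in capitals.
*Fzd5*, chr1:64737752-64738000, minus strand: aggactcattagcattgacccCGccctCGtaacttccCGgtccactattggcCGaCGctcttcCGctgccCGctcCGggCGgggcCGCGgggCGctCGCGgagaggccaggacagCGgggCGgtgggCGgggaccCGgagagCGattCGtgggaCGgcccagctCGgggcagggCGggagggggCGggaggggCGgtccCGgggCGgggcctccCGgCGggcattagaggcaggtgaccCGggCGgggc
*Fzd9*, chr5:135251231-135251297, minus strand: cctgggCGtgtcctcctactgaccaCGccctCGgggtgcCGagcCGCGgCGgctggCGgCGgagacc
*Fzd4*, chr7:89404116-89404354, plus strand: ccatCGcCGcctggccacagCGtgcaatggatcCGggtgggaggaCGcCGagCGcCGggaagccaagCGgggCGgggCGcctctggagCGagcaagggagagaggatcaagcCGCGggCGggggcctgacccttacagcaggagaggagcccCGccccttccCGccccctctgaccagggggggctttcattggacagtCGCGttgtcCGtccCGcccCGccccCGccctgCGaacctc
These stretches hold no CTTTG or CAAAG. The window of *Fzd7*, which also passed as higher at 12 h, holds 1 match. For *Fzd2* and *Fzd8*, higher at 12 h as well, no window was at hand. Whether matches go with the direction of the response was not tested.

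The libraries held 18188636 to 38974885 counts. Levels are given as CPM (read counts scaled to library size after TMM normalization over all 30 libraries) when 1 gene is compared between libraries, and as FPKM (fragments scaled to transcript length and library size by the authors) when genes are compared with each other. The 7 markers of limb mesenchyme, among them *Prrx1*, *Tbx5* and *Twist1*, were detected in every group and summed to 2476 to 3484 CPM. The sex of the embryos was not balanced. Transcripts of 4 Y-linked genes added up to 21.2 to 38.2 FPKM in C59 and 0.0469 to 9.03 in DMSO at 1 h, and to 19.8 to 33.2 FPKM in C59 at 6 h, when all DMSO libraries were at 0, so that sex and treatment cannot be told apart at 1 and 6 h. At the 3 later times both arms held libraries of both kinds or overlapped. The fit at 12 h was therefore also run on the libraries in which Y-linked transcripts were near absent, 2 of each group. By chi-square per degree of freedom over all genes, single libraries stood apart from the other 2 of their group: DMSO 1 h replicate 1 (22.9 and 25.2 against 5.75 between the others), DMSO 6 h replicate 1 (39.0 and 46.2 against 6.18), DMSO 18 h replicate 1 (32.0 and 39.8 against 4.20), C59 18 h replicate 3 (36.4 and 43.2 against 4.37) and C59 24 h replicate 2 (34.8 and 46.6 against 12.8). Leaving out the first of these, 1 member passed at 1 h, which was *Fzd2* in place of *Fzd10*. Leaving out DMSO 6 h replicate 1 kept the same 4 members, and leaving out DMSO 18 h replicate 1 the same 2. Without C59 18 h replicate 3 there were 6, and without C59 24 h replicate 2 there were 2, *Fzd8* and *Fzd9*. In the Frizzled genes, C59 12 h replicate 3 also lay apart from its group. According to the methods of the study, several pairs of forelimb buds were dissected and stored, and RNA for each library came from 1 pair. However, 14 of the 30 libraries (5 DMSO, 9 C59) held more than 1 FPKM both of Y-linked transcripts and of *Xist*, the RNA of the inactive X chromosome, among them all C59 libraries of 6 and 24 h.

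*Fzd2* had the highest level of the family in every group, and *Fzd5* and *Fzd9* had the lowest in 9 of the 10 groups. In DMSO controls at 1 h the FPKM was 67.8 ± 3.72 (SD, n = 3 libraries, as for all levels) for *Fzd2*. *Fzd10* followed with 26.4 ± 1.99, *Fzd1* with 25.3 ± 0.371 and *Fzd7* with 23.6 ± 1.19. The libraries of *Fzd10* and *Fzd1* overlapped, whereas those of *Fzd2* and *Fzd10*, and of *Fzd1* and *Fzd7*, did not. An intermediate set was formed by *Fzd3* (6.55 ± 0.450), *Fzd6* (4.15 ± 0.0624), *Fzd4* (3.73 ± 0.192) and *Fzd8* (2.90 ± 0.218), whose libraries did not overlap between neighbours in this order. *Fzd5* (0.417 ± 0.0256) and *Fzd9* (0.201 ± 0.0561) were last and did not overlap each other either. In the counts, *Fzd9* was the least sampled, with 9 to 375 reads per library over the series, against 5579 to 13235 for *Fzd2*.

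By 24 h in DMSO the order had changed in its middle. *Fzd2* (81.2 ± 0.819), *Fzd1* (31.8 ± 0.824), *Fzd7* (28.3 ± 0.548) and *Fzd10* (23.1 ± 1.38) led without overlap between neighbours. *Fzd8* had moved from rank 8 to rank 5 with 11.8 ± 0.759, ahead of *Fzd4* (7.01 ± 0.347), *Fzd3* (6.18 ± 0.178) and *Fzd6* (4.68 ± 0.105). *Fzd9* (3.11 ± 0.255) now stood above *Fzd5* (1.07 ± 0.128). In C59-treated limb buds *Fzd10* went from rank 3 at 1 h to rank 7 at 12 h and *Fzd8* from rank 8 to rank 4. *Fzd10* stood at rank 6 at 6 h (6.16 ± 0.195) where its libraries overlapped those of *Fzd8* and *Fzd4*, and at rank 7 at 12 h (5.84 ± 0.904).

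Over the 10 groups, the ratio of the highest to the lowest mean FPKM was 25.9 for *Fzd9*, 5.24 for *Fzd8*, 4.74 for *Fzd5* and 4.52 for *Fzd10*. For the other 6 genes it was 1.32 to 1.99. The lowest ratios were those of *Fzd7*, *Fzd1* and *Fzd2*, which are among the most abundant members.

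**Figure D1:**
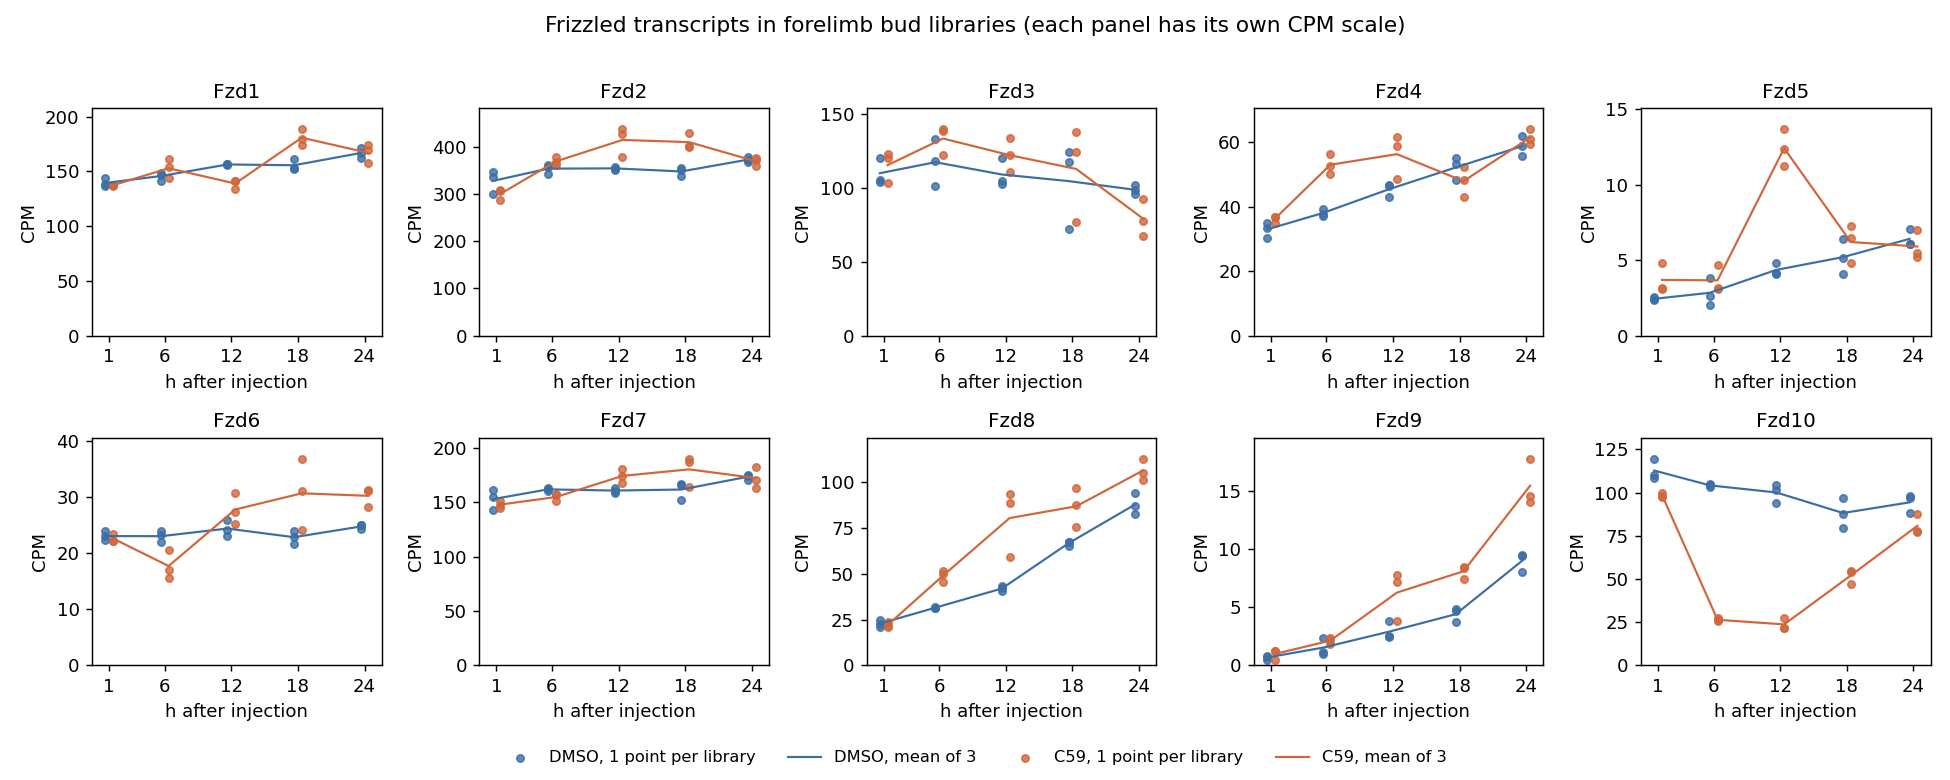
Level of each Frizzled gene in CPM (vertical axis, scaled per gene and starting at 0) against the time after injection in h (horizontal axis). Points are libraries and lines join the means of 3 libraries of DMSO (blue) and C59 (orange). The C59 points of *Fzd10* lie far below those of DMSO at 6 and 12 h, while those of *Fzd8* and *Fzd9* lie above at 12, 18 and 24 h.

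C59 and DMSO were then compared at each time point. A gene passed when its adjusted p was below 0.05 and was called when its log2 fold change was also beyond 1 in either direction. At 1 h, 1 of the 10 Frizzled genes passed and 0 were called, where 2.75% of all genes tested passed (1.14% higher and 1.61% lower) and 0.283% were called. The gene that passed was *Fzd10*, and no log2 fold change of a member was beyond 1. At 6 h, 4 passed (2 higher and 2 lower in C59) and 1 was called, against 19.6% passed (8.20% higher, 11.4% lower) and 1.17% called among all genes. At 12 h, 8 passed (6 higher, 2 lower) and 3 were called, against 47.5% (22.0% higher, 25.5% lower) and 4.95%. At 18 h, 2 passed (1 in each direction) and no fold change was beyond 1, against 7.08% (3.46% higher, 3.62% lower) passed and 1.29% called. At 24 h, 3 passed, all higher in C59, and again no fold change was beyond 1, against 6.44% (2.88% higher, 3.56% lower) passed and 0.819% called. The median log2 fold change of the 10 genes was -0.025, 0.12, 0.21, 0.24 and 0.0017 at the 5 time points, beside 0.0016, 0.0050, 0.017, 0.0012 and 0.0037 over all genes. The CPM of the groups did not overlap for 3, 5, 8, 6 and 5 of the 10 members, a pattern shown by 22.0%, 36.8%, 57.1%, 34.2% and 27.7% of all genes.

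**Figure D2:**
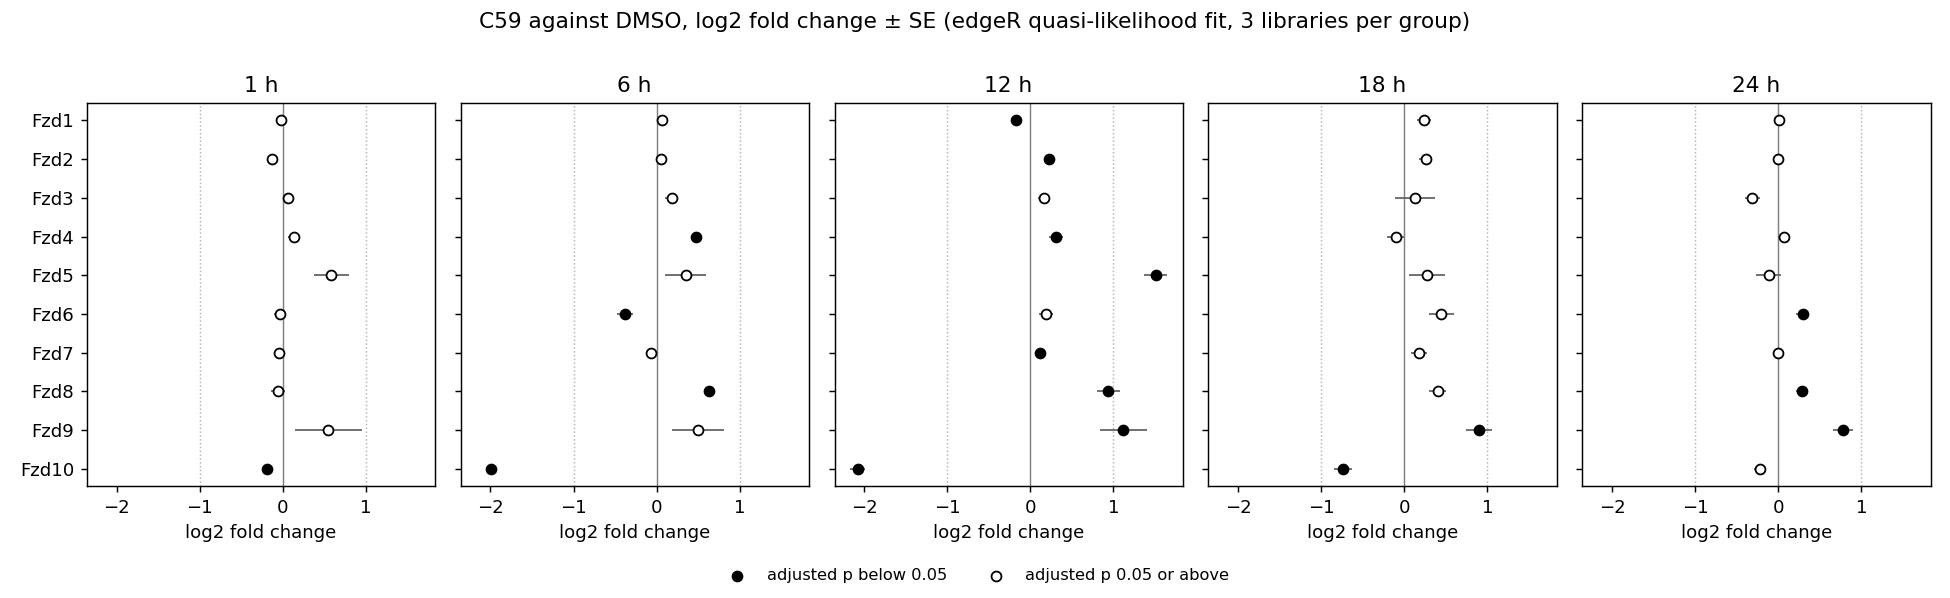
Log2 fold change of C59 against DMSO (horizontal axis) for each Frizzled gene (rows) at 5 time points (panels), with bars for ± 1 SE from fits on 3 libraries per group. Filled points passed at an adjusted p below 0.05, and dotted lines mark log2 fold changes of -1 and 1. *Fzd10* is the only member beyond -1, at 6 and 12 h, and *Fzd5* and *Fzd9* lie beyond 1 at 12 h.

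*Fzd10* fell after C59 and later approached the controls. At 6 h the DMSO libraries were at 105, 105 and 103 CPM and the C59 libraries at 27.2, 25.8 and 25.9 CPM. At 12 h they were at 94.2, 102 and 104 and at 21.8, 21.5 and 27.6 CPM. Each C59 library was far below every DMSO library at both times. The log2 fold change was -1.99 ± 0.05 (SE, adjusted p = 9.8e-12) at 6 h and -2.08 ± 0.09 (adjusted p = 2.3e-07) at 12 h, that is 3.97-fold and 4.22-fold lower levels. By its p-value *Fzd10* ranked 4 among 13100 genes at 6 h. In bulk tissue, fewer cells that express a gene and less RNA per cell cannot be told apart.

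The difference in *Fzd10* was small at the edges of the time course. At 1 h the DMSO libraries were at 119.7, 110.3 and 108 CPM and the C59 libraries at 97.7, 98.3 and 99.7 CPM, without overlap. The log2 fold change of -0.19 ± 0.05 passed narrowly (adjusted p = 0.047) and did not pass when any 1 of 5 of the 6 libraries was left out (adjusted p = 0.095 to 0.16). At 18 h, DMSO libraries were at 79.5, 87.9 and 97.1 CPM and C59 libraries at 54.8, 47.1 and 54.1 CPM, again without overlap, with a log2 fold change of -0.74 ± 0.11 (adjusted p = 0.0063). At 24 h the values were 98.2, 88.2 and 96.7 CPM in DMSO and 87.5, 77.6 and 77.2 CPM in C59. The highest C59 library was here within 1 CPM of the lowest DMSO library, and the log2 fold change of -0.22 ± 0.07 did not pass (adjusted p = 0.092), but was -0.28 and passed without C59 replicate 1 (adjusted p = 0.015). The change of the effect between 12 and 24 h was itself tested and was 1.86 ± 0.12 (adjusted p = 4.3e-08), while between 6 and 12 h it was -0.091 ± 0.11 (adjusted p = 0.60).

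*Fzd4* and *Fzd9*, the relatives of *Fzd10*, moved in the other direction. *Fzd4*, also a receptor for Norrin in blood vessels of the eye, was at 37.6, 37.1 and 39.3 CPM in DMSO and 56.3, 52.5 and 50.1 CPM in C59 at 6 h. All C59 libraries lay above all DMSO libraries, and the log2 fold change was 0.48 ± 0.06 (adjusted p = 1.3e-04). At 12 h the values were 46.3, 46.9 and 43.1 CPM and 58.7, 61.5 and 48.6 CPM, still without overlap, with a log2 fold change of 0.31 ± 0.09 (adjusted p = 0.012), which did not pass without DMSO replicate 3 (adjusted p = 0.053). The lowest of the C59 libraries was replicate 3, and without it the log2 fold change was 0.42. At 18 and 24 h the groups overlapped, and the log2 fold changes were -0.10 ± 0.11 (adjusted p = 0.58) and 0.069 ± 0.07 (adjusted p = 0.60).

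*Fzd9* was scarce early and was higher in C59 at 12, 18 and 24 h. At 6 h its levels overlapped, with 0.997, 2.34 and 1.18 CPM in DMSO and 2.16, 2.35 and 1.85 CPM in C59 (log2 fold change 0.50 ± 0.31, adjusted p = 0.29). The overlap came from DMSO replicate 2, without which the log2 fold change was 0.96 and passed (adjusted p = 0.036). At 12 h they were 2.40, 3.79 and 2.49 CPM and 7.19, 7.73 and 3.82 CPM, and the log2 fold change was 1.12 ± 0.28 (adjusted p = 0.0081). The lowest C59 library, replicate 3, was only just above the highest DMSO library, and without it the log2 fold change was 1.38. At 18 h the values were 4.81, 4.63 and 3.73 CPM and 8.46, 7.44 and 8.34 CPM, a clear gap between the groups, with a log2 fold change of 0.89 ± 0.16 (adjusted p = 0.013). This did not pass without DMSO replicate 2 (adjusted p = 0.0501) or DMSO replicate 3 (adjusted p = 0.071). At 24 h *Fzd9* was at 9.52, 8.04 and 9.43 CPM in DMSO and 14.0, 14.5 and 17.8 CPM in C59, with a log2 fold change of 0.78 ± 0.12 (adjusted p = 0.0027). It had the smallest p-value of the family at 24 h, and every C59 library was above every DMSO library.

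*Fzd5* and *Fzd8*, the next pair of relatives, were also higher after C59. For *Fzd5* this was a single peak at 12 h: the DMSO libraries were at 4.84, 4.06 and 4.19 CPM and the C59 libraries at 11.2, 12.4 and 13.7 CPM. The lowest C59 library was more than 2 times the highest DMSO library, and the log2 fold change was 1.51 ± 0.13 (adjusted p = 1.0e-05), a 2.84-fold higher level. At 6 h the groups overlapped, with 2.62, 3.86 and 2.07 CPM in DMSO and 3.19, 4.71 and 3.11 CPM in C59 (log2 fold change 0.35 ± 0.25, adjusted p = 0.35). At 18 h they overlapped again (0.27 ± 0.21, adjusted p = 0.47), and at 24 h, with 7.10, 6.05 and 6.10 CPM and 5.21, 5.51 and 7.02 CPM, the log2 fold change was -0.11 ± 0.15 (adjusted p = 0.71). At 1 h, the C59 libraries (3.17, 3.08 and 4.84 CPM) lay above the DMSO libraries (2.37, 2.40 and 2.56 CPM) without passing (log2 fold change 0.59 ± 0.21, adjusted p = 0.17). The effect at 12 h differed from that at 6 h by 1.16 ± 0.29 (adjusted p = 0.011) and from that at 24 h by -1.63 ± 0.20 (24 h minus 12 h, adjusted p = 1.5e-05).

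*Fzd8*, a gene of 1 exon (chr18:9212163-9218136, plus strand), was higher in C59 at 6, 12 and 24 h, on a level that rose with time in both arms. At 6 h it was at 31.3, 32.0 and 31.2 CPM in DMSO and 49.7, 51.6 and 45.8 CPM in C59, without overlap, with a log2 fold change of 0.63 ± 0.06 (adjusted p = 1.5e-05). At 12 h the values were 40.7, 43.2 and 42.0 CPM and 93.5, 88.9 and 59.3 CPM. C59 replicate 3 was again the lowest of its group but above all controls. The log2 fold change was 0.94 ± 0.14 (adjusted p = 3.3e-04), and 1.13 without that library. At 18 h, DMSO libraries were at 67.4, 67.6 and 65.3 CPM and C59 libraries at 75.9, 87.9 and 97.2 CPM. These did not overlap, but the log2 fold change of 0.40 ± 0.11 did not pass (adjusted p = 0.057). At 24 h the values were 86.9, 83.0 and 94.0 CPM and 101, 105 and 113 CPM, and the log2 fold change of 0.28 ± 0.07 passed (adjusted p = 0.026). It did not pass without DMSO replicate 1, DMSO replicate 2 or C59 replicate 3 (adjusted p = 0.053 to 0.13). The effect at 24 h minus that at 12 h was -0.66 ± 0.17 (adjusted p = 0.0052).

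*Fzd6*, a receptor known from planar polarity and hair orientation, was lower at 6 h and higher at 24 h. At 6 h it was at 23.2, 21.9 and 24.0 CPM in DMSO and 17.1, 15.5 and 20.5 CPM in C59. No libraries overlapped, and the log2 fold change was -0.38 ± 0.10 (adjusted p = 0.014). It did not pass without DMSO replicate 3, C59 replicate 1 or C59 replicate 2 (adjusted p = 0.051 to 0.072), nor with limma on log2(FPKM + 1) (adjusted p = 0.067). At 12 h the groups overlapped, with 23.1, 25.9 and 24.2 CPM in DMSO and 25.3, 27.4 and 30.7 CPM in C59 (log2 fold change 0.19 ± 0.09, adjusted p = 0.090). At 18 h the values were 21.7, 24.0 and 22.9 CPM and 36.9, 31.1 and 24.1 CPM. C59 replicate 3 was close to the controls, and the log2 fold change of 0.44 ± 0.15 did not pass (adjusted p = 0.12), while without that library it was 0.59 (adjusted p = 0.0059). At 24 h, with 25.0, 24.3 and 25.1 CPM in DMSO and 28.3, 31.1 and 31.3 CPM in C59, the log2 fold change was 0.29 ± 0.08 (adjusted p = 0.038). This pass was lost when any 1 of 5 of the 6 libraries was left out (adjusted p = 0.065 to 0.14). The effect changed between 6 and 12 h by 0.57 ± 0.14 (adjusted p = 0.0089).

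*Fzd3*, which guides axons and acts in planar polarity, passed in none of the 5 comparisons with all libraries and the settings used throughout, although its unadjusted p was 0.041 at 6 h and 0.0040 at 24 h. At 12 h the DMSO libraries were at 119.8, 105 and 102 CPM and the C59 libraries at 111, 133 and 122 CPM, with overlap (log2 fold change 0.16 ± 0.08, adjusted p = 0.10). At 24 h, with 98.1, 96.1 and 102 CPM in DMSO and 67.7, 77.4 and 92.6 CPM in C59, all C59 libraries were below all controls. The log2 fold change there was -0.31 ± 0.09 (adjusted p = 0.057), and it passed with DESeq2 (adjusted p = 0.019), without a filter and without C59 replicate 3 (-0.43, adjusted p = 0.0066). *Fzd3* also passed at 6 h without DMSO replicate 2 (0.28, adjusted p = 0.0070) and at 12 h without DMSO replicate 1 (0.24, adjusted p = 0.037) or C59 replicate 1 (0.24, adjusted p = 0.021), there with a higher level in C59. At 18 h single libraries of both arms were low, with 71.8, 124 and 118 CPM in DMSO and 138, 124 and 76.5 CPM in C59. The effect at 24 h minus that at 12 h was -0.48 ± 0.13 (adjusted p = 0.0083).

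The abundant members *Fzd1*, *Fzd2* and *Fzd7* stayed within a log2 fold change of 0.26 in either direction at all 5 time points. At 12 h *Fzd2* was at 357, 353 and 351 CPM in DMSO and 437, 426 and 378 CPM in C59, all C59 libraries being higher, with a log2 fold change of 0.23 ± 0.05 (adjusted p = 0.0055). *Fzd1* was lower, with 157, 157 and 156 CPM in DMSO and 134, 141 and 141 CPM in C59. These groups did not overlap, and the log2 fold change was -0.17 ± 0.04 (adjusted p = 0.0070). It was -0.086 and did not pass with upper-quartile factors (adjusted p = 0.096). *Fzd7* was at 159, 163 and 161 CPM in DMSO and 174, 181 and 168 CPM in C59, with a log2 fold change of 0.12 ± 0.04 (adjusted p = 0.049), and did not pass when any 1 of 5 of the 6 libraries was left out (adjusted p = 0.057 to 0.16). Upper-quartile factors moved the split of members at 12 h from 6 higher and 2 lower to 8 higher and 1 lower, with *Fzd3* and *Fzd6* added and *Fzd1* lost. The split of all genes that passed moved with them, from 2934 higher and 3396 lower to 4088 and 2575, and at 6 h from 1074 and 1491 to 1369 and 1266.

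At 18 h all C59 libraries of *Fzd1* (174, 179 and 189 CPM) were above the controls (153, 152 and 161 CPM), as were those of *Fzd2* (399, 402 and 428 against 337, 354 and 350.2 CPM). Neither passed, with log2 fold changes of 0.23 ± 0.08 (adjusted p = 0.13) and 0.26 ± 0.08 (adjusted p = 0.10). Among the C59 libraries at 18 h, replicate 3 stood apart in several members. Without it 6 members passed, namely *Fzd2*, *Fzd6*, *Fzd7* and *Fzd8* beside *Fzd9* and *Fzd10*, and without DMSO replicate 2 or 3 only *Fzd10* did. At 24 h the log2 fold changes of *Fzd1*, *Fzd2* and *Fzd7* were 0.0079, -0.0072 and -0.0044, with standard errors of 0.05 to 0.06 and overlapping libraries. The signs of these 3 values depended on which library was left out, and those of *Fzd2* and *Fzd7* also on the normalization.

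Whether the effect of C59 changed between time points was tested as a difference of effects over 12 libraries. Between 6 and 12 h, 4 members passed (3 with a higher and 1 with a lower effect at 12 h) and 1 of these, *Fzd5*, changed by more than 1 on the log2 scale. Among all genes, 18.1% passed (6.59% higher, 11.5% lower) and 1.89% also changed by more than 1. Between 12 and 24 h, 5 members passed (1 higher, 4 lower) and 2, *Fzd10* and *Fzd5*, changed by more than 1, against 36.9% (19.2% higher, 17.7% lower) and 5.83% of all genes.

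In the libraries of 12 h with Y-linked transcripts near absent, 8 members passed as in all 6 libraries. *Fzd10* was at -2.02, *Fzd5* at 1.52, *Fzd9* at 1.24 and *Fzd8* at 0.84 on the log2 scale. *Fzd6* was added (0.29, adjusted p = 0.025) and *Fzd7* lost (0.12, adjusted p = 0.11). At 1 and 6 h no such fit can be had, and the values of *Fzd10* at 1 h and of *Fzd10*, *Fzd8*, *Fzd4* and *Fzd6* at 6 h carry this limit. So does every other comparison of the arms at these times, for sums, shares, other genes and marker lists. The changes of the effect from 6 to 12 h carry it as well.

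The family also changed in the controls. From 1 to 24 h after DMSO, 9 of the 10 genes passed (7 higher, 2 lower at 24 h) and 3 were called, where 59.3% of all genes passed (30.2% higher, 29.2% lower) and 12.0% were called. *Fzd9* rose most: the libraries went from 0.491, 0.833 and 0.676 CPM to 9.52, 8.04 and 9.43 CPM, a log2 fold change of 3.75 ± 0.20 (adjusted p = 1.1e-09), from no more than 19 reads per library at 1 h. *Fzd8* went from 20.9, 22.5 and 24.9 CPM to 86.9, 83.0 and 94.0 CPM (1.95 ± 0.07, adjusted p = 2.0e-11), and its means increased at every step between. *Fzd5* went from 2.37, 2.40 and 2.56 CPM to 7.10, 6.05 and 6.10 CPM (1.38 ± 0.16, adjusted p = 3.5e-06).

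*Fzd4* rose by less than these 3, from 30.4, 33.5 and 35.0 to 58.9, 61.8 and 55.7 CPM (0.83 ± 0.07, adjusted p = 8.5e-08). *Fzd1*, *Fzd2* and *Fzd7* rose by 0.26, 0.19 and 0.18 on the log2 scale (adjusted p = 9.8e-05, 0.0050 and 0.0035). *Fzd10* was lower at 24 h (-0.26 ± 0.05, adjusted p = 8.1e-04). *Fzd3* was lower as well (-0.16 ± 0.05, adjusted p = 0.022), but did not pass without DMSO replicate 3 of 1 h or replicates 1 or 2 of 24 h. *Fzd6* did not pass (0.10 ± 0.07, adjusted p = 0.23).

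In C59-treated limb buds all 10 genes passed between 1 and 24 h (8 higher, 2 lower) and 2 were called, against 54.1% (28.4% higher, 25.7% lower) and 13.6% of all genes. The log2 fold changes were 3.99 ± 0.22 for *Fzd9* and 2.29 ± 0.07 for *Fzd8*. For *Fzd5* it was 0.69 ± 0.20 beside 1.38 ± 0.16 in DMSO, and for *Fzd3* -0.53 ± 0.10 beside -0.16 ± 0.05. The 24 h level of *Fzd10* differed by -0.27 from that at 1 h in C59 and by -0.26 in DMSO, although it had been far lower in C59 between these times. The difference between the arms was not tested in this comparison. In C59, *Xist* was at 0.0793 to 23.7 FPKM at 1 h and at 26.4 to 47.6 FPKM at 24 h. Sex and time are therefore not fully separated in the C59 comparison. In each arm all 10 genes had libraries at 24 h that did not overlap those at 1 h, as did 64.8% of all genes in DMSO and 62.6% in C59.

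**Figure D3:**
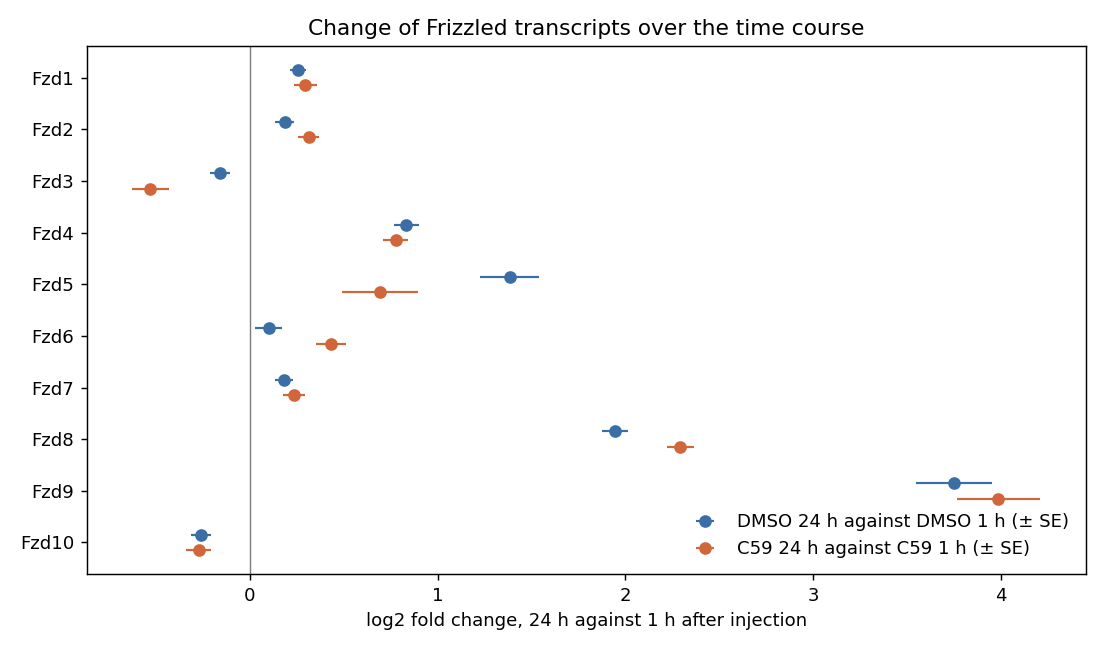
Log2 fold change between 24 and 1 h after injection (horizontal axis) of each Frizzled gene (rows) in DMSO (blue) and C59 (orange), with bars for ± 1 SE of the fit on 3 libraries per group. *Fzd9* and *Fzd8* lie far to the right in both arms, and *Fzd3* and *Fzd10* lie left of 0.

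Added up, the Frizzled transcripts differed less between the arms than *Fzd10* did. The summed FPKM was 170.0 ± 2.44 in DMSO and 161 ± 3.56 in C59 at 6 h, and C59 libraries (157 to 164) were all below DMSO libraries (168 to 173). In CPM the sums overlapped at 6 h, with 953 to 1005 in DMSO and 936 to 984 in C59. At 12 h it was 174 ± 2.21 and 187 ± 9.40, with overlapping libraries. At 18 h it was 178 ± 1.04 and 201 ± 6.26, and all C59 libraries were above all DMSO libraries. At 1 h it was 161 ± 3.10 and 149 ± 2.73, and at 24 h 198 ± 1.03 and 202 ± 1.08. No p-value is given for this sum. Without *Fzd10*, the member that fell most, the summed FPKM at 6 h was 146 ± 1.55 in DMSO and 154 ± 3.58 in C59. The order of the groups in FPKM turned around, which reflects the fall of *Fzd10* itself and is no separate result.

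The makeup shifted accordingly. *Fzd10* made up 14.4% ± 0.315 of the sum in DMSO and 3.84% ± 0.155 in C59 at 6 h, and 13.5% ± 0.724 and 3.14% ± 0.656 at 12 h. By 24 h the shares were 11.7% ± 0.640 and 9.98% ± 0.737. *Fzd2* made up 42.5% ± 0.519 in DMSO and 48.7% ± 1.40 in C59 at 12 h. *Fzd8* increased its share in DMSO from 1.80% ± 0.109 at 1 h to 5.96% ± 0.374 at 24 h.

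**Figure D4:**
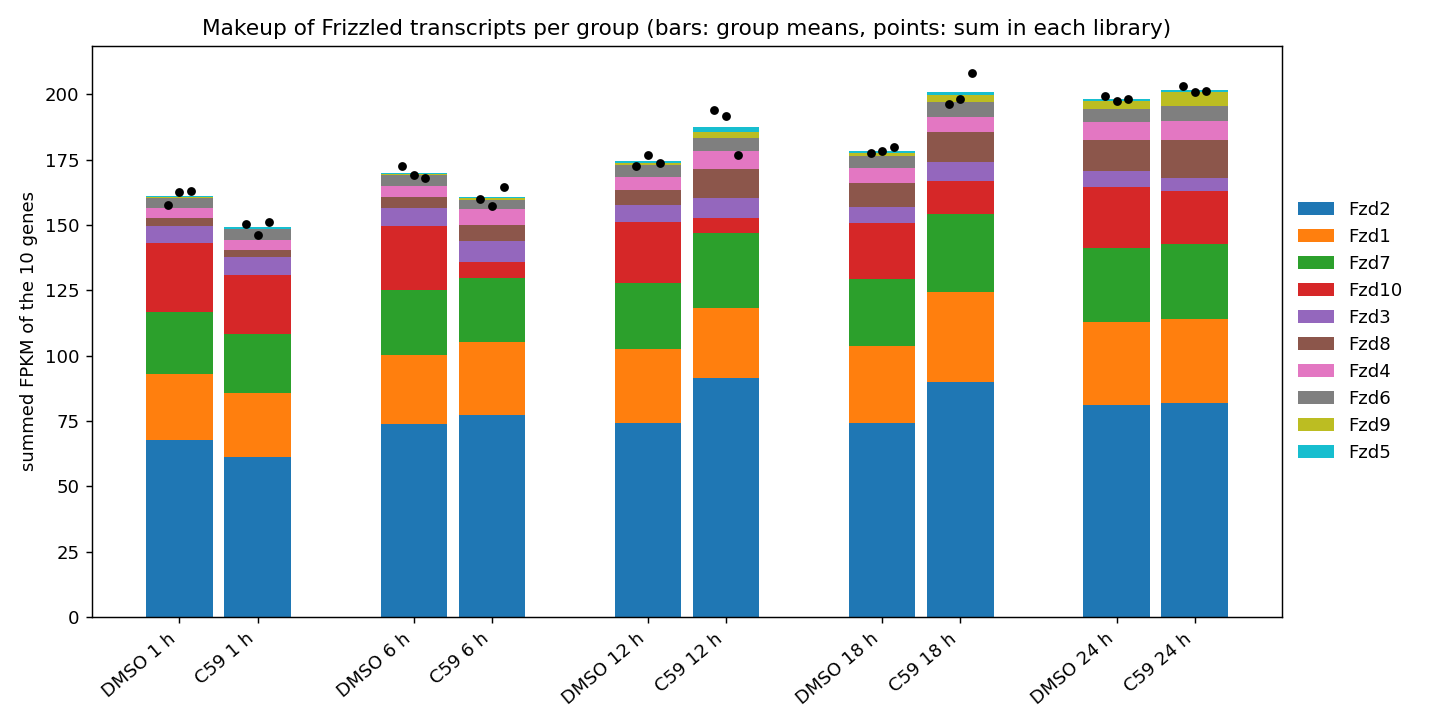
Summed FPKM of the 10 Frizzled genes (vertical axis, starting at 0) in each group (horizontal axis). Bars stack the mean FPKM of the genes over 3 libraries and black points give the sum in each library. The *Fzd10* segment is thin in C59 at 6 and 12 h, while the *Fzd2*, *Fzd1* and *Fzd7* segments make up most of every bar.

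Among 12542 protein-coding autosomal genes with a mean of at least 1 CPM, those with the most similar profile to each member over the 10 group means were looked up by Pearson correlation of log2 CPM. The 10 points share the libraries of 5 time points and 2 treatments, so r is a description. For *Fzd10* they were *Lef1* (0.993), *Tmem59l* (0.987) and *Cdo1* (0.983), *Lef1* being a transcription factor of the WNT/β-catenin pathway. For *Fzd9* they were *Slc14a1* (0.996), *Phlda2* (0.996) and *Galnt16* (0.992), and for *Fzd8* *Fam234b* (0.995), *Evi5l* (0.995) and *Igfbp5* (0.994). For *Fzd5* they were *Zfp784* (0.973), *Tapbp* (0.960) and *Tmem200c* (0.959), with a lower r. *Fzd4* was closest to *Rbl2* (0.985), *Smpd5* (0.972) and *Ngly1* (0.972). *Fzd2* was closest to *Mfsd11* (0.990), *Efna3* (0.967) and *Usp35* (0.966), *Fzd1* to *Cdyl2* (0.953), *Tbc1d2b* (0.930) and *Med12l* (0.926) and *Fzd7* to *Psd* (0.974), *Sema3d* (0.973) and *Eri3* (0.969). *Fzd3* was closest to *Zfp217* (0.975), *Ulk1* (0.973) and *Ubn2* (0.972), and *Fzd6* to *Ncf4* (0.932), *Krt7* (0.931) and *Rbp4* (0.921), *Krt7* being a keratin of simple epithelia. Within the family, the closest pair was *Fzd8* and *Fzd9* with an r of 0.975, and *Fzd10* had an r of -0.66 with *Fzd2* and -0.40 with *Fzd8* (n = 10 group means).

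Genes whose products work with Frizzled proteins were listed by role: co-receptors, turnover, the relay to the nucleus, planar polarity, and proteins with a Frizzled-like cysteine-rich domain. Of 49 listed genes, 46 were tested at 6 h, where 7 rose and 9 fell, and 46 at 12 h, where 11 rose and 14 fell. Among all genes 19.6% passed at 6 h (8.20% higher, 11.4% lower) and 47.5% at 12 h (22.0% higher, 25.5% lower). Of 46 tested at 1 h, 1 rose and 1 fell. Of 47 tested at 18 h, 4 rose and 1 fell, and of 47 at 24 h, 5 rose and 4 fell. The share of all genes that passed was 2.75% at 1 h, 7.08% at 18 h and 6.44% at 24 h. The median log2 fold change of the list was 0.037 at 6 h and 0.052 at 12 h, beside 0.0050 and 0.017 over all genes. Called genes numbered 3 at 6 h, all lower, and 4 at 12 h, of which 3 were lower. Of all genes, 1.17% were called at 6 h and 4.95% at 12 h.

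In the list of the cytoplasmic and nuclear relay, *Axin2* is a direct target and feedback inhibitor of the pathway. At 6 h *Axin2* was at 104 to 118 CPM in DMSO and 26.5 to 29.2 CPM in C59. Its log2 fold change was -1.97 ± 0.06 (adjusted p = 7.6e-11) at 6 h and -1.45 ± 0.06 (adjusted p = 1.4e-07) at 12 h. At 12 h *Fzd10* was lower still (-2.08 ± 0.09), and at 18 h *Fzd10* was at -0.74 ± 0.11 where *Axin2* was at -0.16 ± 0.09 (adjusted p = 0.33), a difference between genes that was not tested. *Tcf7*, a TCF factor, was at 44.5 to 56.2 CPM in DMSO and 12.7 to 16.2 CPM in C59 at 12 h (-1.80 ± 0.11, adjusted p = 1.3e-06). *Lef1* was lower by less, at -0.83 ± 0.07 (adjusted p = 3.1e-06) and -0.98 ± 0.06 (adjusted p = 1.5e-06) at 6 and 12 h. *Tcf7l2* and *Tcf7l1*, chosen after their values were seen, rose at 12 h by 0.99 ± 0.07 (adjusted p = 1.8e-06) and 0.45 ± 0.04 (adjusted p = 1.9e-05).

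Among the 8 genes of Frizzled turnover, 4 fell and 1 rose at 6 h. Of all genes tested, 11.4% passed as lower and 8.20% as higher at that time. The values at 6 h given below are those of genes that fell. ZNRF3 and RNF43 are ubiquitin ligases that remove Frizzled proteins from the membrane, and LGR4, LGR5 and LGR6 are receptors for R-spondins, which restrain these ligases. *Lgr6* was at 2.54 to 3.61 CPM in DMSO and 0.777 to 1.37 CPM in C59 (-1.38 ± 0.27, adjusted p = 0.0032), and *Lgr5* at 4.03 to 6.36 CPM and 1.99 to 2.97 CPM (-1.03 ± 0.22, adjusted p = 0.0050). At 24 h *Lgr6* was higher in C59 (0.97 ± 0.20, adjusted p = 0.014). *Znrf3* and *Rnf43*, also chosen after their values were seen, were at -0.57 ± 0.11 (adjusted p = 0.0031) and -0.82 ± 0.23 (adjusted p = 0.021) at 6 h. At 12 h *Znrf3* was still lower (-0.51 ± 0.07, adjusted p = 2.8e-04), whereas *Rnf43* was at 0.46 ± 0.18 (adjusted p = 0.060).

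**Figure D5:**
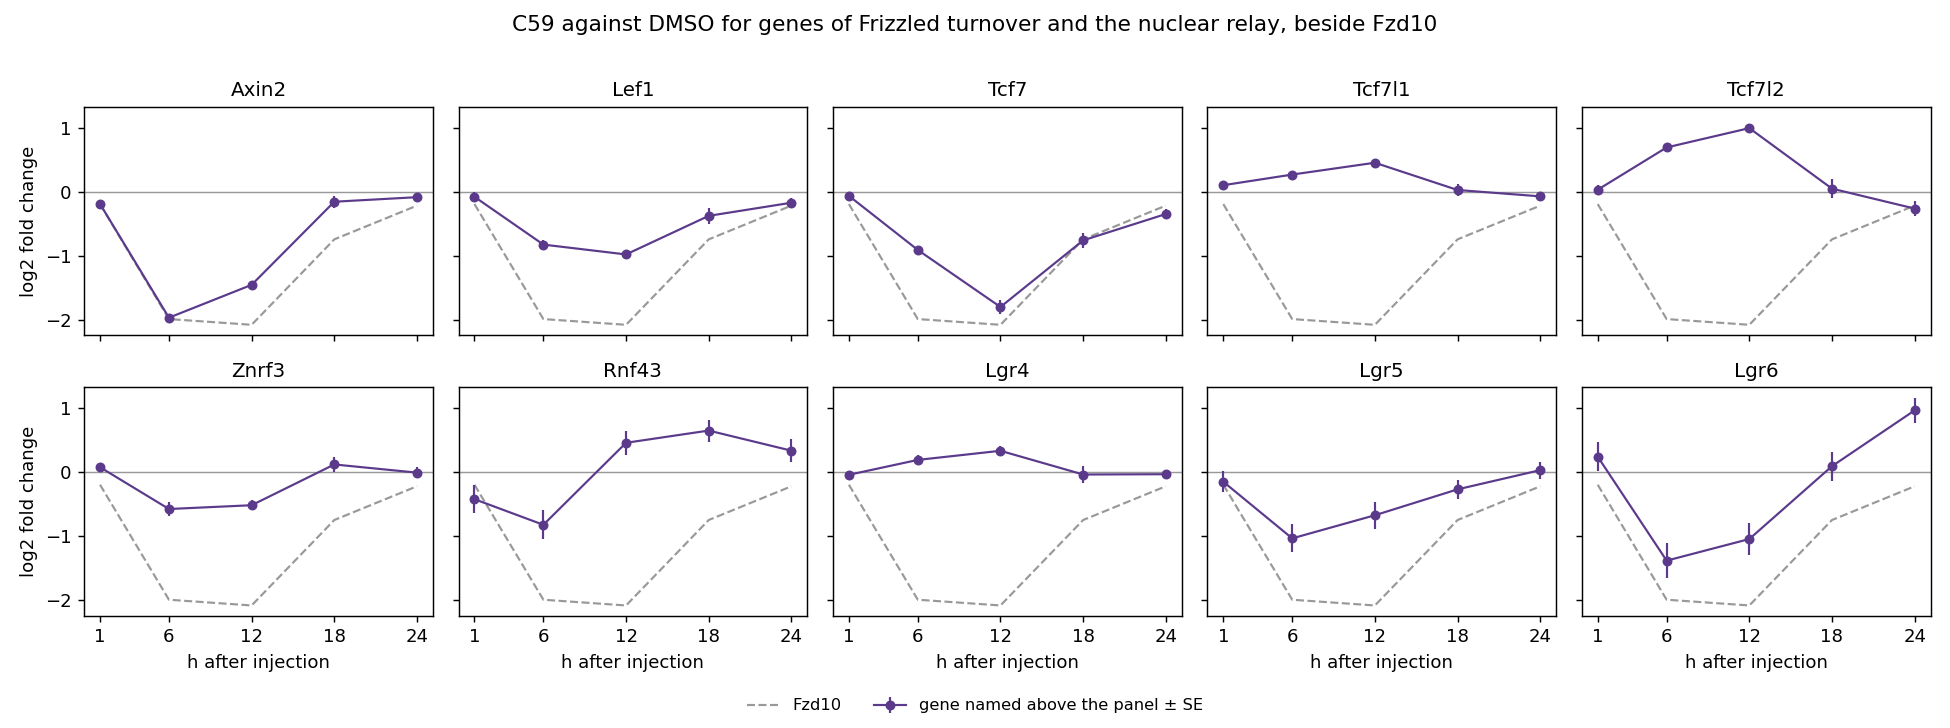
Log2 fold change of C59 against DMSO (vertical axis) at 1 to 24 h after injection (horizontal axis) for 10 genes of the relay and of Frizzled turnover (panels), with bars for ± 1 SE, and for *Fzd10* (dashed grey line in each panel). *Axin2* meets the *Fzd10* line at 6 h, *Tcf7* comes close to it at 12 h, and *Tcf7l2* lies above 0 at both times.

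Of 10 co-receptors and alternative receptors tested at 6 h, 1 rose and 1 fell, and of 11 at 12 h, 3 rose and 4 fell, none beyond a log2 fold change of 1, beside 19.6% and 47.5% of all genes that passed at these times. Of 8 planar polarity genes 2 rose and 0 fell at 6 h, and 2 rose and 1 fell at 12 h. Among secreted proteins with a Frizzled-like domain, *Sfrp2*, which binds WNT ligands outside the cell, was at 85.3 to 101 CPM in DMSO and 179.7 to 250.1 CPM in C59 at 12 h (1.16 ± 0.11, adjusted p = 1.3e-05). It was also higher at 18 h (1.02 ± 0.09, adjusted p = 0.0013). *Sfrp5*, counted above among the genes that rose at 24 h, was at very low levels of 0.0781 to 0.360 CPM in DMSO and 0.583 to 1.94 CPM in C59. It met the filter on low counts only through the C59 libraries, so its test supports nothing.

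Markers of several cell types moved at the same times. At 12 h, when 22.0% of all genes passed as higher and 25.5% as lower, the lists stood as follows. Of the cartilage list at 12 h, 7 of 8 rose and 0 fell, with a median log2 fold change of 1.18, and its summed level was 1226 to 1314 CPM in DMSO and 2214 to 3223 CPM in C59. Of the ectoderm list, 7 of 11 rose and 1 fell, with a median log2 fold change of 0.39, and its summed level was 324 to 361 and 424 to 570.0 CPM. Of the limb mesenchyme list, 2 of 7 rose and 4 fell, with a median log2 fold change of -0.26 (3094 to 3225 and 2840.0 to 3127 CPM). Among muscle progenitor markers 2 of 6 rose and 3 fell, with a median log2 fold change of -0.24 (102 to 120.2 and 116 to 149.6 CPM), and among Schwann cell and nerve markers 3 of 5 rose and 0 fell, with a median log2 fold change of 0.92 (53.6 to 70.8 and 109 to 131 CPM). Among macrophage markers 3 of 5 rose and 0 fell, with a median log2 fold change of 0.74 (13.2 to 15.3 and 24.2 to 24.9 CPM), among endothelial markers 3 of 6 rose and 0 fell, with a median log2 fold change of 0.27, and among erythroid markers 1 of 5 rose and 0 fell, with a median log2 fold change of 0.36. No marker was at 0 in every library of a group. At 6 h, when *Fzd10*, *Fzd8*, *Fzd4* and *Fzd6* had passed, the cartilage list was at 1029.9 to 1099.9 CPM in DMSO and 1150.4 to 1398 CPM in C59, and the ectoderm list at 329.6 to 359 and 346 to 348 CPM. The muscle list was at 89.5 to 93.6 and 121 to 133 CPM, the mesenchyme list at 2885 to 3040.3 and 2734 to 2851 CPM and the Schwann cell and nerve list at 46.3 to 49.5 and 55.6 to 66.2 CPM, each without overlap. Of 6 muscle markers 2 passed as higher, but *Pax3* as lower (-0.80 ± 0.10). Of 7 mesenchyme markers 3 passed as lower, but *Pdgfra* (0.44 ± 0.05) and *Col1a2* (0.20 ± 0.05) as higher. Of 7 cartilage markers tested, 2 passed as higher and 0 as lower, and of 11 ectoderm markers 1 and 3. Among all genes 8.20% passed as higher and 11.4% as lower at 6 h. The erythroid, endothelial and macrophage lists overlapped. At 18 and 24 h the cartilage list was at 1458 to 1761 and 1801 to 2022 CPM in DMSO and 2267 to 2608 and 2324 to 2540.1 CPM in C59. The ectoderm list was at 329.5 to 355 and 374 to 383 CPM in DMSO and 408 to 464 and 435 to 464 CPM in C59, without overlap, as was the macrophage list (21.4 to 23.7 and 22.5 to 26.0 against 29.0 to 33.0 and 27.4 to 32.8 CPM). The muscle list was lower in C59 without overlap (170.0 to 174 and 208 to 235 against 121 to 165 and 175 to 200.1 CPM). At 24 h the mesenchyme list was lower as well (3402 to 3484 against 2991 to 3160.3 CPM), as was the endothelial list (302 to 307 against 257 to 283 CPM), and at 18 h the Schwann cell and nerve list was higher (85.9 to 96.1 against 105 to 124 CPM). At 18 and 24 h, 5 and 4 of 8 cartilage markers passed as higher, as did 4 and 3 of 11 ectoderm markers. Of 6 muscle markers 3 passed as lower at each time. At 24 h only 1 of 7 mesenchyme and 1 of 6 endothelial markers passed, both lower. Among all genes 3.46% and 2.88% passed as higher and 3.62% and 3.56% as lower at 18 and 24 h. The part of these cells in the changes of the Frizzled genes was not tested.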

How the data were processed

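PolyA RNA from 30 mouse forelimb bud libraries was grouped by treatment and time from the sample labels, with 3 libraries per group and none left out. Per the labels and the study's methods, reads were trimmed with Cutadapt and mapped with STAR 2.7.0e to mm10. The deposited count table holds raw counts per gene, not normalized, written by STAR, for autosomal genes, and the strand used for counting is not given in the sources used here. The deposited FPKM values were computed by the authors with Cufflinks 2.2.1, set to unstranded libraries, and normalize fragments to transcript length and library size. Replicates were not pooled.

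Members were matched by symbol and Ensembl identifier, and RefSeq lists Fzd10 as an older name of *Fzd2*, which the identifier kept apart. Tests used edgeR 4.0.16 (quasi-likelihood F test, TMM, genes kept by filterByExpr at its count limits of 10 per library and 15 in total) for autosomal genes that code for protein, each comparison on its own libraries, without covariates, two-sided, with Benjamini-Hochberg adjustment over the 13076 to 13798 genes tested. Standard errors were derived from F. The interaction contrasts used 12 libraries. Depth was 18188636 to 38974885 counts per library, and as reads carried no molecular identifiers they are not independent. No 2 replicates agreed within sampling noise (chi-square per degree of freedom at least 3.49). The fits were tested on simulated data.

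Alternatives were DESeq2 1.42.0, its size factors or upper-quartile factors in edgeR, dropping the filter or keeping genes whose mean reached 1 CPM, every gene type, a joint fit of the 30 libraries, limma 3.58.1 on log2(FPKM + 1) and log2(FPKM + 0.1), blocking on replicate number, and omission of single libraries in turn. The fit on libraries of 12 h with Y-linked transcripts near absent and the motif CTTTG were added after the data were seen. The members, gene lists, naming rule and tests were chosen with earlier results of these data known. The rule named the 10 members, partners called in at least 1 treatment comparison, *Axin2*, and the 3 genes closest in profile to each member. Sequences of the receptor proteins were not analysed here.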

Additional observations from a re-analysis of the deposited data

Results flagged for a closer look

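The effect of C59 on a Frizzled gene differed between time points in 9 cases by a test of the difference itself (edgeR's quasi-likelihood test of the interaction contrast on 12 libraries, adjusted over all genes tested). Of the 10 members, 4 passed between 6 and 12 h (3 higher, 1 lower), where 18.1% of all genes did (6.59% higher, 11.5% lower), and 5 between 12 and 24 h (1 higher, 4 lower), where 36.9% did (19.2% higher, 17.7% lower). Both contrasts use the libraries of 12 h.

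Between 6 and 12 h the log2 effect changed by 1.16 ± 0.29 for *Fzd5* (adjusted p = 0.011) and by 0.57 ± 0.14 for *Fzd6* (adjusted p = 0.0089). For *Fzd6* this was a change from a lower level in C59 to a higher mean. The changes of *Fzd1* (-0.24 ± 0.06, adjusted p = 0.018) and *Fzd7* (0.18 ± 0.06, adjusted p = 0.031) were small. The value of *Fzd1* did not pass when any 1 of 5 of the 12 libraries was left out, nor that of *Fzd7* when any 1 of 3 was left out (C59 6 h replicate 2, DMSO 12 h replicate 1, C59 12 h replicate 2).

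Between 12 and 24 h the effect changed by 1.86 ± 0.12 for *Fzd10* (adjusted p = 4.3e-08), the largest of the family, as its level in C59 approached the controls. For *Fzd5* it changed by -1.63 ± 0.20 (adjusted p = 1.5e-05) and for *Fzd8* by -0.66 ± 0.17 (adjusted p = 0.0052). The effect on *Fzd3* changed by -0.48 ± 0.13 (adjusted p = 0.0083), although *Fzd3* passed at neither time alone. For *Fzd2* the change of -0.24 ± 0.08 (adjusted p = 0.020) did not pass without C59 12 h replicate 1 (adjusted p = 0.061) or replicate 2 (adjusted p = 0.067).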

How the results depend on the processing

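Of 908 values of single members under other settings (DESeq2, other normalizations and filters, all genes, all 30 libraries in 1 fit, limma on FPKM, the replicate block), 846 kept direction and side of the threshold, 33 no longer passed, 19 newly passed and 10 changed sign. With 1 library left out these numbers were 591, 37, 17 and 15 of 660. The causes were not tested. At 1 h the count of members that passed went from 1 to 0 with all genes of the table, all 30 libraries, both limma fits and the replicate block, and was 0 to 1 with 1 library left out. At 18 h it was 2, was 7 with all 30 libraries, and was 1 to 6 with 1 library left out. At 24 h it was 3, was 1 with all 30 libraries and with both limma fits, and was 1 to 4 with 1 library left out, the lowest without DMSO replicate 1 or 2. For the change from 6 to 12 h it was 4, and 2 to 6 with 1 library left out, the lowest without DMSO 12 h replicate 1. The log2 ratio of the summed level was -0.11, -0.081 and 0.024 at 1, 6 and 24 h in FPKM and -0.063, -0.027 and -0.0064 in CPM.

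The values that changed sign belonged to results that had not passed. At 24 h *Fzd2* was 0.0053 with upper-quartile factors and 0.0088 and 0.0089 with limma at pseudocounts of 1 and 0.1, and *Fzd7* 0.0079, 0.015 and 0.016. The change from 6 to 12 h of *Fzd3* was 0.044 with upper-quartile factors, 0.0029 with a mean of at least 1 CPM, and 0.034 and 0.039 with limma. With 1 library left out, the ranges were -0.12 to 0.015 for *Fzd8* at 1 h, -0.083 to 0.33 for *Fzd3* at 18 h, -0.028 to 0.057, -0.020 to 0.017 and -0.040 to 0.037 for *Fzd1*, *Fzd2* and *Fzd7* at 24 h, and -0.10 to 0.092 for *Fzd3* between 6 and 12 h.

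Whether the replicate numbers pair the samples is not settled. Deviations of libraries with the same number correlated between -0.21 and 0.14. At 12 h each library correlated best with its own number (0.036, 0.089 and 0.14, against at most 0.023 with another number). With the replicate block the count of members that passed was 0, 4, 8, 2 and 3 at 1, 6, 12, 18 and 24 h, where at 24 h *Fzd3* newly passed and *Fzd6* no longer did. At 1, 6, 18 and 24 h not every library correlated best with its own number. Between C59 and DMSO the SE reached 0.40 for *Fzd9*, 0.25 for *Fzd5* and 0.24 for *Fzd3* on the log2 scale. The p-values measure only the spread between the 3 libraries of a group.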

Other observations

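*Fzd10os*, a long noncoding RNA gene on the strand opposite to *Fzd10* (chr5:128579106-128600693, minus strand, GRCm38), begins 150 bases from the *Fzd10* start and runs away from it, so the genes do not overlap. It was looked up after the values of *Fzd10* were seen, and was tested with edgeR among all genes of the count table. At 12 h its FPKM was 1.86, 2.60 and 1.67 in DMSO and 1.62, 1.26 and 1.35 in C59, all C59 libraries being lower. The log2 fold change was -0.45 ± 0.23 (adjusted p = 0.21) at 6 h, -0.86 ± 0.15 (adjusted p = 8.8e-04) at 12 h, -0.81 ± 0.16 (adjusted p = 0.022) at 18 h and -0.11 ± 0.14 (adjusted p = 0.69) at 24 h. At 6 h, where *Fzd10* was at its log2 fold change of -1.99 ± 0.05, the libraries of *Fzd10os* overlapped (1.89, 1.94 and 3.85 FPKM in DMSO, 1.06, 1.36 and 3.02 in C59). The effect on both genes was not compared by a test.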
